A study of Homo sapiens with 17 samples.

Results

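The genes described here make and feed the ribosome: cytosolic ribosomal proteins, translation initiation and elongation factors, aminoacyl-tRNA synthetases and the tRNA export receptor. They were picked by symbol from the union of 4 deposited lists of genes that were lower after knockdown, and 39 of the 1400 genes in that union were members. Of the 39, 32 were coding genes and 7 were processed pseudogenes, which are described apart. The coding members comprised 13 cytosolic aminoacyl-tRNA synthetases, 12 ribosomal proteins, 4 initiation factors, 1 regulator of initiation, 1 elongation factor and the exportin XPOT. The argonaute gene EIF2C2, whose older symbol begins like an initiation factor, was left out.

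The RNA came from PC3, an established human prostate cancer cell line, collected 7 days after viral infection. MED25, a subunit of the Mediator coactivator complex, was depleted with either of 2 lentiviral short hairpin RNAs (shRNAs), A and B, with 3 libraries each. ETV4, an ETS-family transcription factor, was depleted with either of 2 retroviral shRNAs, A and B, also with 3 libraries each. Control cells had received a lentivirus with a luciferase shRNA (3 libraries) or a retrovirus with a control shRNA (2 libraries), although the series design text speaks of an empty vector. Every cell therefore carried a virus, and both shRNAs of a target were compared with the same control libraries. No label says whether replicate libraries came from separate cultures. Values of single libraries are not analysed here, and depth, replicate spread and PC3 marker levels could therefore not be checked.

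Each value below is a log2 ratio, knockdown over control, copied from the authors' deposited tables. These give no error per gene and list genes at least 1.5-fold lower, all with a deposited adjusted-p score above 20. A gene missing from a table may have been higher, unchanged, lower by less, lower with a smaller score, or not measured. In the authors' deposited tables, MED25 itself was at −0.96 (shRNA A) and −1.71 (shRNA B), and ETV4 at −1.94 (A) and −2.67 (B). The sign of these targeted genes helped to set the direction of the ratios.

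Aminoacyl-tRNA synthetases join each amino acid to its tRNA, XPOT carries tRNA out of the nucleus, and initiation factors bring the ribosome, the initiator tRNA and the mRNA together. Ribosomal protein mRNAs are abundant and often begin with a terminal oligopyrimidine tract, through which their translation is controlled by mTOR. Many cytosolic synthetase genes are known targets of ATF4, a transcription factor whose own translation rises when amino acids are short. ATF4 binds with C/EBP-family partners to a composite DNA site, the C/EBP-ATF response element.

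The members were listed almost entirely in 1 of the 4 comparisons. The table of MED25 shRNA A held all 39, where 56.1% of the union was listed in that table. MED25 shRNA B had 2 of the 39, against 26.7% of the union, and ETV4 shRNA A had 1, against 35.4%. ETV4 shRNA B had 0 of the 39, against 7% of the union. The union was formed from these tables, so low shares outside MED25 shRNA A partly follow from all 39 being in its table. The tables differ in length, with 786, 374, 495 and 98 genes in that order, and members made up 4.96%, 0.535%, 0.202% and 0% of them. Read against the annotation, MED25 shRNA A listed 32 of 184 protein-coding genes that follow the symbol rule (17.4%), while it listed 3.44% of all annotated protein-coding genes, expressed or not. These shares were 1.09% and 1.61% for MED25 shRNA B, 0.543% and 2.17% for ETV4 shRNA A, and 0% and 0.456% for ETV4 shRNA B. MED25 shRNA A left more MED25 transcript (51.6% of control) than shRNA B (30.5%) in the authors' deposited tables, and whether the 2 shRNAs differed in any member was not tested.

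**Figure D1:**
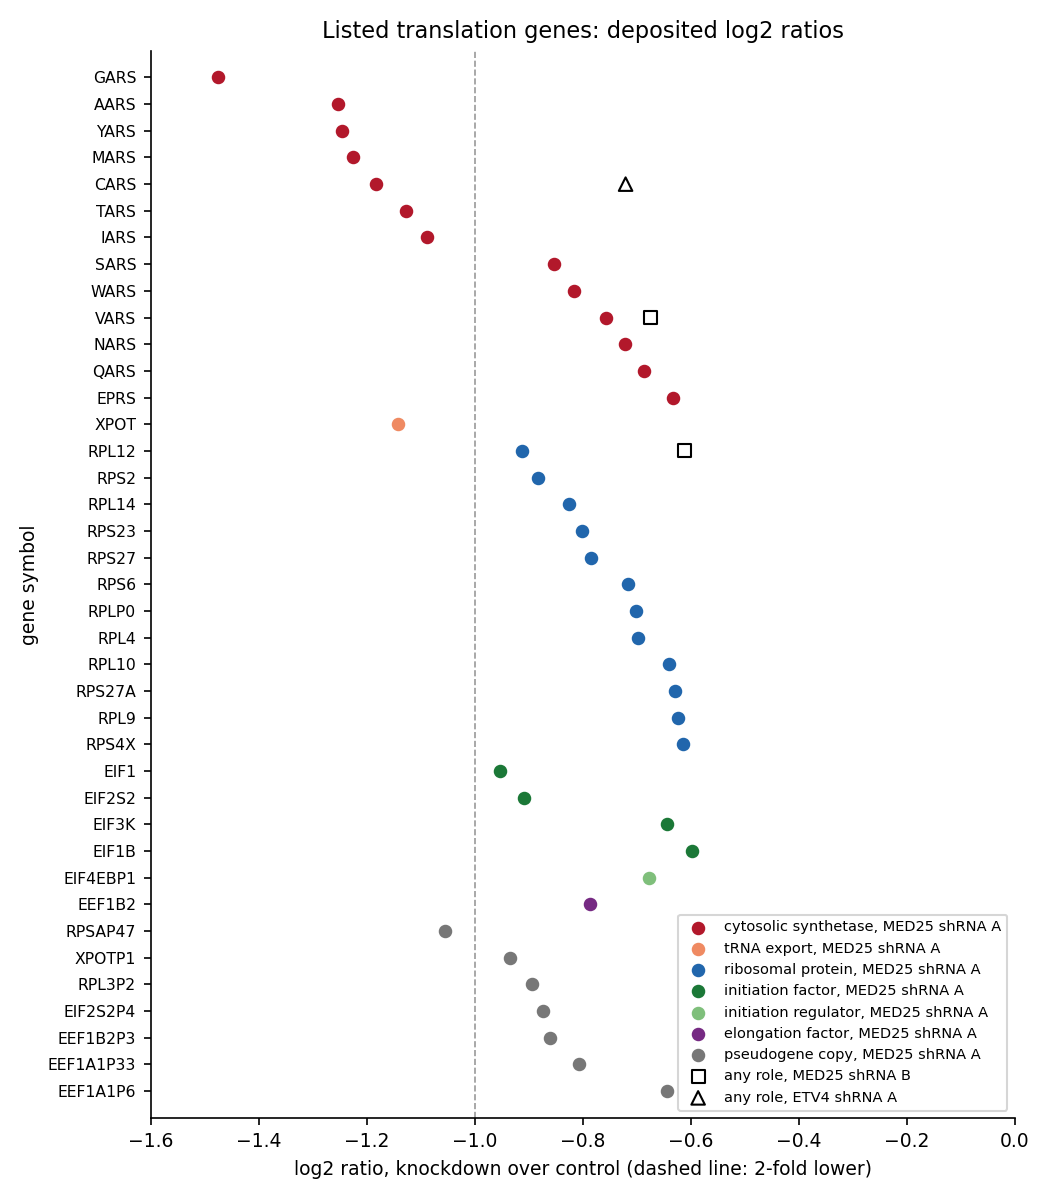
Deposited log2 ratios (x axis, knockdown over control) of the 39 listed genes (y axis), grouped by role; filled circles are MED25 shRNA A, open squares MED25 shRNA B and the open triangle ETV4 shRNA A. Synthetases reach down to −1.48, ribosomal proteins lie between −0.91 and −0.61, and 3 genes have a second value.

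Cytosolic synthetases gave the largest decreases among the coding members. With MED25 shRNA A, 13 of the 20 subunits that charge cytosolic tRNA were listed (65%, beside 3.44% of all coding genes), and 7 of these 13 were lowered at least 2-fold. Their median was −1.09, or 47.0% of control, beside a median of −0.78 over all 786 genes of the authors' deposited table, of which 24% were lowered at least 2-fold. Together with XPOT and the pseudogene RPSAP47, these 7 were the only members lowered that far.

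The glycine enzyme GARS (ENSG00000106105, chromosome 7) had the lowest ratio of these in the authors' deposited table for MED25 shRNA A, at −1.48, which is 36.0% of control and rank 35 of 786. Alanyl-tRNA synthetase AARS (ENSG00000090861, chromosome 16) was at −1.25 and the tyrosine enzyme YARS (ENSG00000134684, chromosome 1) also at −1.25 in the authors' deposited table. The methionine enzyme MARS (ENSG00000166986, chromosome 12) was at −1.23 in the authors' deposited table. On the annotation MARS overlaps DDIT3 on the opposite strand, itself at −1.05 in the authors' deposited table for that shRNA, and without strand, reads from the stretch they share cannot be told apart. These 4 enzymes stood between 36.0% and 42.8% of control, within the 87 most lowered genes of the table.

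Next came the cysteine enzyme CARS (ENSG00000110619, chromosome 11) at −1.18, the threonine enzyme TARS (ENSG00000113407, chromosome 5) at −1.13 and the isoleucine enzyme IARS (ENSG00000196305, chromosome 9) at −1.09 in the authors' deposited table. Below 2-fold, the serine enzyme SARS was at −0.85, the tryptophan enzyme WARS at −0.82 and the valine enzyme VARS at −0.76 in the authors' deposited table for MED25 shRNA A. The asparagine enzyme NARS was at −0.72, the glutamine enzyme QARS at −0.69 and EPRS, which charges both glutamate and proline, at −0.63 in the authors' deposited table. No synthetase lay between −1.09 and −0.85, which leaves 7 values at or below the first and 6 at or above the second.

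The 7 cytosolic synthetase genes missing from the table were DARS, FARSA, FARSB, HARS, KARS, LARS and RARS. By catalytic fold, 7 of 9 class I genes and 5 of 10 class II genes were listed, with medians of −1.09 and −1.13, and EPRS holds a domain of each class. FARSA and FARSB, both for phenylalanine, are counted apart in class II. Among the 8 enzymes of the multisynthetase complex, a cytoplasmic assembly, 4 were listed (EPRS, IARS, MARS and QARS), against 9 of the 12 genes outside it. The complex members had a median of −0.89 and the others −1.13. None of the 3 scaffold genes AIMP1, AIMP2 and EEF1E1 was in any table. These splits rest on few genes and carry no test.

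XPOT (ENSG00000184575, chromosome 12), the exportin for mature tRNA, was at −1.14 in the authors' deposited table for MED25 shRNA A, or 45.3% of control, between CARS and TARS. It was in none of the other tables.

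The promoters of the synthetases were searched for the core of the C/EBP-ATF response element, because these genes were lowered together and many are known ATF4 targets. The core was taken as TGATGNAA on either strand, within 250 bases before to 50 bases after an annotated start in the RefSeq promoters (GRCh38.p14). Of the listed synthetases, 11 of 13 had a promoter in that table and 7 of these held the core. The sites are shown 5′ to 3′ on the strand of the gene, as 30 bases each, with the core in capitals.
GARS: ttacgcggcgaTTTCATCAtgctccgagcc
AARS: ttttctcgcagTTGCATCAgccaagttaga
MARS: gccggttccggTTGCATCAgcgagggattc
CARS: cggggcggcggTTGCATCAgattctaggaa
TARS: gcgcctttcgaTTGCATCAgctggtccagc
IARS: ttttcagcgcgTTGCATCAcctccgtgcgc
NARS: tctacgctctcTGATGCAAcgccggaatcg

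On the gene's strand, 5 of the 7 had the same 8 letters, TTGCATCA, and NARS had their reverse complement, TGATGCAA. GARS differed from the 5 in a single letter of the core, the one left free in the search. The windows lie on GRCh38.p14 at chr7:30594834-30594863 (GARS, plus strand), chr16:70289675-70289704 (AARS, minus), chr12:57488053-57488082 (MARS, plus) and chr11:3057407-3057436 (CARS, minus). Those of TARS (plus), IARS (minus) and NARS (minus) lie at chr5:33440956-33440985, chr9:92293692-92293721 and chr18:57621804-57621833. In 5 genes (CARS, IARS, MARS, NARS and TARS) the core began within 30 bases of the annotated start, in GARS 33 bases and in AARS 187 bases before it. GARS has 2 annotated starts in the table, and the core lies by the downstream one alone. CARS and TARS also have 2 starts each, and the distance given for them is from 1 of these.

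By comparison, 4.46% of the 27305 genes with a promoter in the table held this core in any of their windows. It was in 0 of the 5 synthetases that were not listed and have an entry, FARSA, FARSB, HARS, KARS and RARS. DARS, LARS, VARS and YARS had no entry. Within the listed enzymes, the 7 with the core had a median of −1.18 (range −1.48 to −0.72) with MED25 shRNA A, and the 4 without it, SARS, WARS, QARS and EPRS, a median of −0.75 (range −0.85 to −0.63). Apart from NARS, all values with the core were below all values without it in the authors' deposited table. YARS (−1.25) and VARS (−0.76), which are listed but have no promoter entry, stand outside this comparison. XPOT had no match in its window. A match is a stretch of letters, and binding was not measured.

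**Figure D2:**
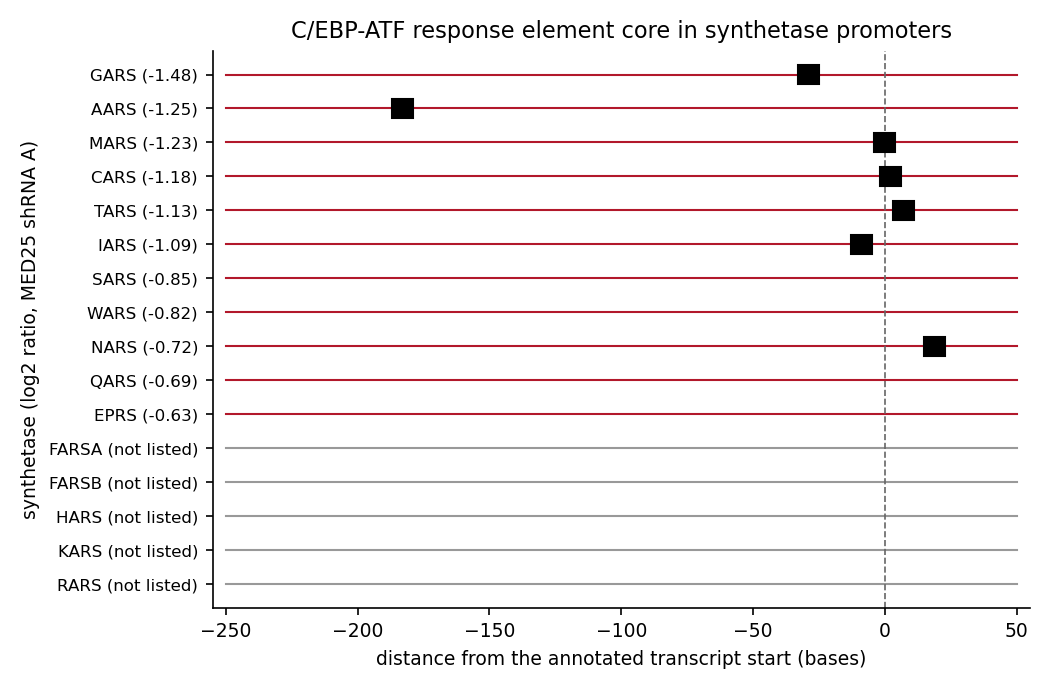
Position of the C/EBP-ATF response element core (black boxes) from 250 bases before to 50 bases after the annotated transcript start (x axis, bases; dashed line at the start) in the 16 cytosolic synthetases with a promoter entry, ordered by log2 ratio with MED25 shRNA A. The core is in 7 of 11 listed enzymes (red lines) and 0 of 5 that were not listed (grey lines). Of the 7 boxes, 5 begin within 30 bases of the start.

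Listed ribosomal proteins had small ratios and high scores. The score is the authors' transformed adjusted p, larger for stronger evidence, and its scale is not given in the sources consulted. With MED25 shRNA A, 12 of the 80 cytosolic ribosomal proteins were listed (15%, beside 3.44% of all coding genes), 6 of 33 in the small subunit and 6 of 47 in the large one. Their median was −0.71, or 61.2% of control, and 0 of the 12 were lowered 2-fold, beside 24% of the genes in the table. Their median score was 176, against 73.0 for the synthetases and 67.6 over all genes of the authors' deposited table, and 9 of 12 scored at least 100, against 3 of 13 synthetases.

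In the large subunit, RPL12 (ENSG00000197958, chromosome 9), part of the stalk base where elongation factors bind, was at −0.91 with a score of 373 in the authors' deposited table, the lowest ratio and highest score of these proteins. RPL14 was at −0.83, the stalk protein RPLP0 at −0.70 and RPL4 at −0.70 in the authors' deposited table for MED25 shRNA A. RPL10, which sits near the peptidyl transferase centre, was at −0.64 and RPL9 at −0.62 in the authors' deposited table. All 6 stood between 53.1% and 64.9% of control.

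In the small subunit, RPS2 (ENSG00000140988, chromosome 16) was at −0.88 and RPS23, a protein of the decoding centre, at −0.80 in the authors' deposited table for MED25 shRNA A. RPS27 was at −0.78 and RPS6, the substrate of the S6 kinases, at −0.72 in the authors' deposited table. RPS27A, which is made as a fusion with ubiquitin, was at −0.63 and the X-linked RPS4X at −0.61 in the authors' deposited table. The other 68 ribosomal proteins were not listed, and neither was any of 9 paralogs such as RPL22L1 and RPS27L.

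Ribosomal protein values are uncertain because the annotation holds many near copies of these genes. The 12 listed genes had a median of 16 annotated pseudogenes each (range 3 to 50), with 50 for RPL12, whereas the 13 synthetases had a median of 0 (range 0 to 2). The sources used here do not say how reads that match several copies were assigned.

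The start of these transcripts was also examined. A C at the annotated start followed by 4 pyrimidines, the opening of a terminal oligopyrimidine tract, was present in 8 of 11 listed ribosomal proteins with a promoter entry (72.7%) and in 40 of 53 that were not listed (75.5%). Among all genes of the promoter table the share was 5.14%. The C/EBP-ATF response element core was in 2 of the 64 ribosomal proteins with an entry (3.13%), of which RPS23 was the listed one.

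**Figure D3:**
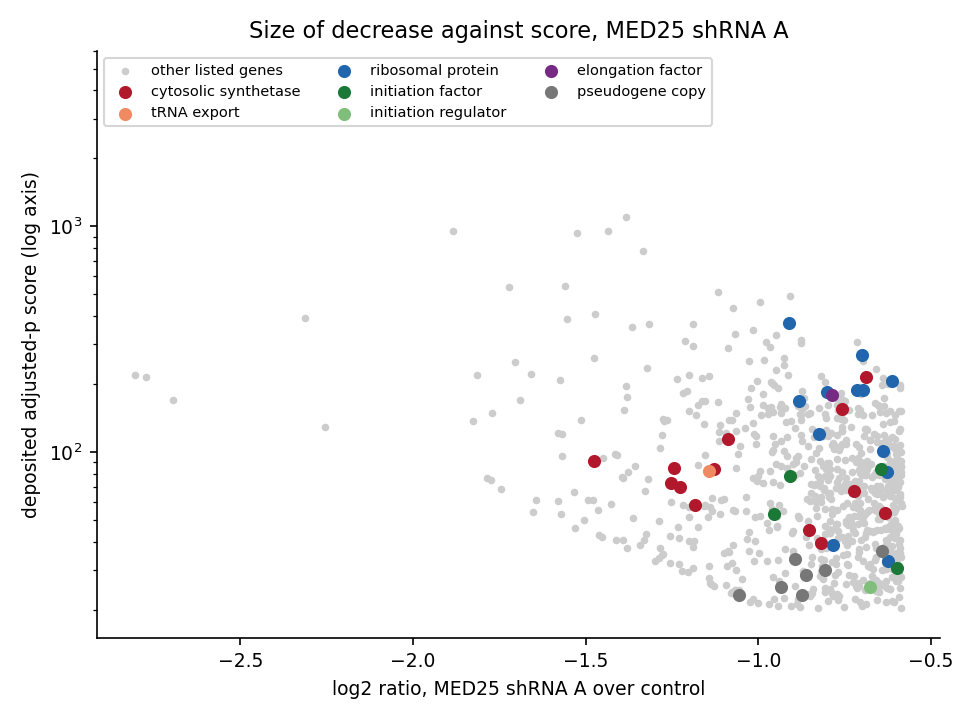
Deposited score (y axis, log scale) against log2 ratio (x axis) for the 786 genes of MED25 shRNA A; grey points are other genes and coloured points the members by role. Ribosomal proteins (median ratio −0.71, median score 176) lie to the upper right of the synthetases (median ratio −1.09, median score 73.0), and the pseudogene copies lie at scores from 23.1 to 36.2.

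Among initiation factors, 4 of 47 were listed, with MED25 shRNA A alone (8.51%, beside 3.44% of all coding genes, expressed or not). EIF1 (ENSG00000173812, chromosome 17), which guards start codon selection, was at −0.95, and EIF2S2, the beta subunit of the factor that delivers initiator tRNA, at −0.91 in the authors' deposited table. EIF3K, a subunit of the scaffold factor eIF3, was at −0.64 and EIF1B, a close paralog of EIF1, at −0.60 in the authors' deposited table. No other eIF3 subunit and none of the eIF2B or eIF4F genes was in any table.

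Of 8 eIF2 kinases and eIF4E-binding proteins, 1 was listed with MED25 shRNA A (12.5%, beside the same 3.44%). EIF4EBP1, which blocks the cap-binding protein eIF4E when unphosphorylated, was at −0.68 in the authors' deposited table for MED25 shRNA A, with a score of 25.2. The 4 kinases of eIF2 were in no table. Among 11 elongation factor genes, 1 was listed (9.09%, again beside 3.44%). It was EEF1B2, the exchange factor for eEF1A, at −0.79 with a score of 179 in the authors' deposited table. The 3.44% is over all annotated coding genes, expressed or not, and single genes are too few to read against it. None of 7 termination and recycling genes and none of 12 genes for poly(A)-binding proteins and their partners was in any table.

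Outside MED25 shRNA A, 3 members had a value. In the authors' deposited tables for MED25 shRNAs A and B, VARS (ENSG00000204394, chromosome 6) stood at −0.76 and −0.68, and RPL12 at −0.91 and −0.61. Both comparisons use the same lentiviral control libraries, so these pairs of values are not independent. Scores were 154 and 123 for VARS, and 373 and 169 for RPL12, in the authors' deposited tables, all above the median score of the table they stand in.

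CARS was the only member listed for both targets. It stood at −1.18 (MED25 shRNA A) and −0.72 (ETV4 shRNA A) across the authors' deposited tables. These 2 comparisons have no control library in common. In the ETV4 table its score was 46.0, below the median of 63.6, and its rank 324 of 495. Of the 39 members listed for MED25 shRNA A, 2.56% were also in the table of ETV4 shRNA A, where 14.2% of all 786 genes were.

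Genes of amino acid synthesis and stress, many of them known ATF4 targets like the synthetases, were listed with both A shRNAs. Of 36 such genes, 24 were listed with MED25 shRNA A (66.7%), at a median of −1.32. The share was close to the 65% of synthetases, beside 3.44% of all coding genes. All 24 were lowered at least 2-fold. The list was chosen with earlier results of these data known, so its shares and medians are not independent of these values. With ETV4 shRNA A, 17 of the 36 were listed (47.2%) at a median of −0.80, beside 2.17% of all coding genes. Of the 20 synthetases 1 was listed there (5%), which is a single gene and not below that share. For these 2 shRNAs, the authors' deposited tables had ATF4 itself at −1.38 and −0.79, and asparagine synthetase (ASNS) at −1.41 and −1.22. The authors' deposited tables had the transporter SLC7A11 at −1.58 and −1.23 for the same shRNAs, and at −0.62 for ETV4 shRNA B. The core was found in 9 of the 20 stress genes listed with MED25 shRNA A that have a promoter entry (45%), beside 7 of 11 synthetases (63.6%).

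Further stress genes in the authors' deposited tables for both A shRNAs were CHAC1, which degrades glutathione, at −1.65 and −2.11, and the pseudokinase gene TRIB3, at −1.46 and −1.13. There too, SLC7A1, a transporter of arginine and lysine, had −1.83 and −0.60, and cystathionine beta-synthase (CBS) −1.57 and −0.76 in the authors' deposited tables. These 4 are named because genes in most tables were named first, so their place in both tables was set by that rule. Of all 24 stress genes listed with MED25 shRNA A, 16 were also listed with ETV4 shRNA A (66.7%), beside 14.2% of all 786 genes. Among the 13 synthetases listed with MED25 shRNA A only CARS was, a number too small to set against that share.

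Mitochondrial synthetases, which charge tRNA for the organelle's own ribosomes, had 2 of 17 genes listed with MED25 shRNA A (11.8%), beside 13 of 20 for the cytosolic ones and 3.44% of all coding genes. The isoleucine enzyme IARS2 was at −1.33 and the valine enzyme VARS2 at −0.69 in the authors' deposited table. MARS2, the methionine enzyme, was absent from that table, and the authors' deposited tables had it at −0.78 for MED25 shRNA B and −0.65 for ETV4 shRNA B. IARS and IARS2 are separate nuclear genes, as are MARS and MARS2.

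**Figure D4:**
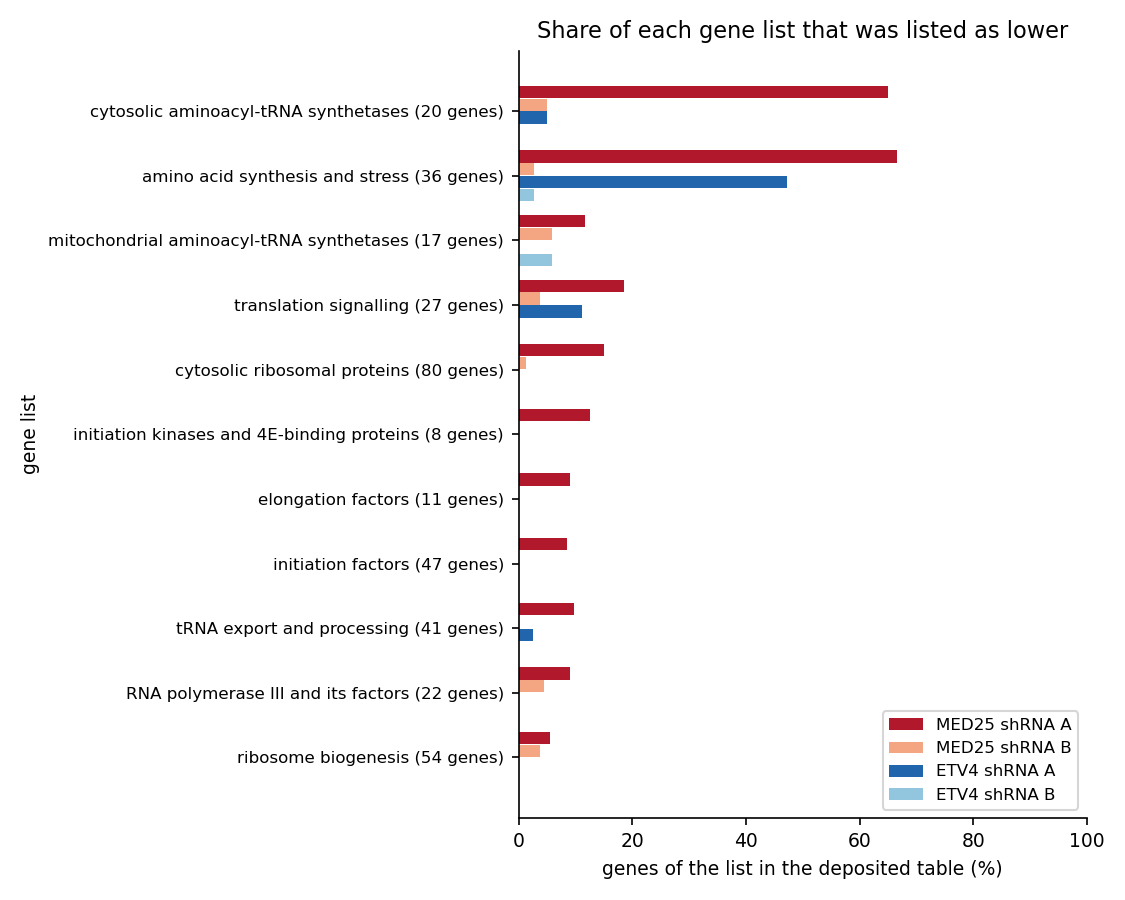
Share of each gene list (y axis, with the number of genes) that was in each deposited table of lower genes (x axis, percent), 1 bar per shRNA. With MED25 shRNA A, synthetases (65%) and amino acid stress genes (66.7%) stand above the other lists, beside 3.44% of all coding genes. With ETV4 shRNA A the stress genes (47.2%) do so, beside 2.17% of all coding genes. There 1 of 20 synthetases was listed (5%). The lists were chosen with earlier results of these data known.

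Other genes of the tRNA and ribosome pathways were listed in small numbers. In tRNA export and processing, 4 of 41 genes (9.76%), XPOT among them, were in the table of MED25 shRNA A. That table held 3.44% of all annotated coding genes, expressed or not. The dihydrouridine synthases DUS3L and DUS1L were at −1.07 and −0.64, and TSEN15, a subunit of the tRNA splicing endonuclease, at −0.75 in the authors' deposited table. ELAC1, a tRNA 3′ processing enzyme, stood at −0.76 in the authors' deposited table for ETV4 shRNA A. RNA polymerase III, which transcribes tRNA genes, and its factors had 2 of 22 genes listed with MED25 shRNA A (9.09%). Of these 22, the authors' deposited tables held POLR3B (−0.75) and GTF3C6 (−0.61) for MED25 shRNA A, and POLR3C (−0.65) for shRNA B. Ribosome biogenesis had 3 of 54 genes listed with MED25 shRNA A (5.56%) and 2 with shRNA B (3.70%), beside 3.44% and 1.61% of all coding genes. In the authors' deposited tables RRP12 was at −0.59 (A) and −0.62 (B), RRS1 at −0.61 (A), NPM3 at −0.59 (A) and fibrillarin (FBL) at −0.78 (B).

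Of 27 genes that signal to the translation machinery, MED25 shRNA A had 5 listed (18.5%) and ETV4 shRNA A had 3 (11.1%), beside 3.44% and 2.17% of all coding genes. The mTORC1 inhibitor SESN2 had −1.39 and −1.14, and the mTOR-binding protein DEPTOR −0.81 and −0.97, in the authors' deposited tables for these shRNAs. PPP1R15A, the phosphatase subunit that reverses eIF2 phosphorylation, had −0.99 (A) and −0.76 (B) in the authors' deposited tables for MED25. MKNK2, a kinase of eIF4E, was at −1.22 and the mTOR complex subunit MLST8 at −0.77 in the authors' deposited table for MED25 shRNA A. DDIT4, another inhibitor of mTORC1, stood at −0.86 in the authors' deposited table for ETV4 shRNA A. Of these 6 genes, SESN2, DEPTOR and DDIT4 are known to restrain mTOR, and MLST8 is a subunit of its complexes.

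The 7 processed pseudogenes, copies of mRNAs of translation genes set back into the genome, were listed with MED25 shRNA A alone. By Ensembl identifier, that table held 12 of 1286 annotated pseudogenes that follow the symbol rule (0.933%), beside 17.4% of the coding genes that do so and 3.44% of all coding genes. The lowest of the 7, RPSAP47, was at −1.06 and EEF1A1P6, the least lowered, at −0.64 in the authors' deposited table. All 7 had scores between 23.1 and 36.2, in the lower part of a table whose median was 67.6. Aligned to coding transcripts, they were 91.9% to 99.4% identical to their best match.

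For 3 of the 7 the matching coding gene was also listed. XPOTP1 was at −0.93 beside XPOT at −1.14, with 95.5% identity between the transcripts, in the authors' deposited table. EIF2S2P4 was at −0.87 beside EIF2S2 at −0.91 (97.1% identity), and EEF1B2P3 at −0.86 beside EEF1B2 at −0.79 (99.0% identity), in the authors' deposited table. In each of these pairs the copy had the lower score. Reads of such copies cannot be told apart from those of the coding gene where the sequences are the same.

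For the other 4 the matching coding gene was not listed. RPSAP47 matched RPSA (96.8% identity), and RPL3P2, at −0.89 in the authors' deposited table, matched RPL3 (94.9%). EEF1A1P6 matched EEF1A1 (99.4%), as did EEF1A1P33, at −0.81 in the authors' deposited table (91.9%). The identifier given with EEF1A1P33, ENSG00000213235, is named EEF1A1P16 in the annotation. A further 5 genes of the MED25 shRNA A table carry clone names there but are annotated as pseudogenes of the same families. They are RPSAP19, RPL12P15, RPL10P9, RPS4XP14 and RPS4XP22, and ranged from −1.01 to −0.65 with scores from 20.7 to 34.5 in the authors' deposited table.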

How the data were processed

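The submitters' processing notes name Novoalign 3.08.02 and the build hg19. How reads were counted, with or without strand, and tested is not given in the sources consulted. Per the file headers, the authors deposited a log2 ratio and an adjusted p for each gene, 1 table per shRNA. The adjusted p runs from just above 20 upward and was treated as a deposited score. MED25 ratios were turned round so that every ratio is knockdown over control. Their headers give library numbers only, and the number that both MED25 headers share, taken as the control, stands first. Read so, 0 listed genes were higher.

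Members were chosen by symbol, and all are named. From each list of other genes, up to 6 listed genes are named, those in most tables first. ATF4 and DDIT3 fall outside this rule and were named after their values were seen. Members and lists were chosen with earlier results of these data known. Mitochondrial ribosomal proteins, the oligopyrimidine start and the synthetase splits were added after values were seen. No test was run, because the tables hold no library values; called genes are those the authors listed.

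Identifiers were matched to GENCODE release 29 (1350 of 1400) for names, gene types and overlaps, and to RefSeq promoters of GRCh38.p14 (27 of 32 coding members). Both are on a later build than hg19. Pseudogenes were aligned with blastn 2.17.0+ (e-value at most 1e-20). Python 3.11.15, pandas 2.3.3 and matplotlib 3.10.9 were used. The symbol rule and the motif search were tested on simulated names and sequences.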

Additional observations from a re-analysis of the deposited data

How the results depend on the processing

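No paired analysis was possible because the tables hold no library values, and for the same reason no replicate could be left out. With a minimum absolute log2 ratio of 1, members listed were 9 for MED25 shRNA A, 0 for shRNA B and 0 for ETV4 shRNA A, and synthetases 7, 0 and 0. With a score of at least 50, ETV4 shRNA A had 0 members and 0 synthetases. Under each of these minimums 0 members were listed for both targets, as when both shRNAs of each target were required (0). The median of members with MED25 shRNA A was −0.79 without pseudogene copies and −0.81 at a score of at least 50, where that of synthetases was −1.13. The core was in 3 of the 11 listed synthetases when only the 250 bases before the start were searched, since 4 cores reach past it. It was in 6 when the first promoter of each gene was taken, an alternative chosen after seeing the data. Unknown depth limits what an absent gene can mean.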

Other observations

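Ribosomal proteins of the mitochondrion, encoded in the nucleus, had 4 of 78 genes listed for MED25 shRNA A (5.13%) and 1 for shRNA B (1.28%), near the 3.44% and 1.61% of all coding genes in these tables. In the authors' deposited tables MRPS2 stood at −0.80 (A) and −0.74 (B), MRPL15 at −0.66 (A), and MRPL3 and MRPS24 both at −0.61 (A). These were named after their values were seen.

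Over whole tables, the C/EBP-ATF response element core was in 40 of 570 genes with a promoter entry for MED25 shRNA A (7.02%) and in 30 of 366 for ETV4 shRNA A (8.20%). It was in 8 of 255 for MED25 shRNA B (3.14%) and 2 of 73 for ETV4 shRNA B (2.74%), beside 4.46% of all genes. Of the 40 with MED25 shRNA A, 7 were cytosolic synthetases and 9 were genes of amino acid synthesis and stress. Both lists were chosen with earlier results of these data known.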
